A study of Mus musculus with 8 samples.

Results

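Messenger RNA bound to tagged ribosomes had been sequenced from midbrain dopamine neurons of mouse embryos, and the file headers of 2 of the 6 dopamine libraries carry the mark E18. These 2 libraries, Lateral and Medial, were compared with the 4 dopamine libraries whose headers do not carry it, datL 1 and 2 and datM 1 and 2. Together they are 6 of the 8 libraries of the series, the other 2 being serotonin neurons of the hindbrain. All libraries are labelled with the DAT (Slc6a3, JD1640) line, a transgenic mouse in which the dopamine transporter gene drives a tagged ribosomal protein, and the serotonin libraries carry the same label. The growth protocol, identical for every library, gives dissection at embryonic day 15 and says that the later stage, day 18, was tissue taken on day 15 and then kept in vitro for 3 days. The labels name no other treatment or allele, assign no library to a stage, do not spell out L and M, and do not say whether libraries came from separate embryos. In the comparison, datL and Lateral were taken as lateral-type and datM and Medial as medial-type, so that each side of the comparison held both positions, with 1 marked and 2 unmarked libraries at each. The marked libraries and both serotonin libraries were sequenced in lane 8 of one run, while the unmarked libraries came from another run folder, so among dopamine libraries the mark, the run and anything else that differed with them cannot be told apart.

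Dopamine neurons of the ventral midbrain make dopamine with tyrosine hydroxylase, load it into vesicles and take it back through the transporter that marks this line. A neuron that has left the cell cycle first switches on genes for migration and axon extension, among them doublecortin, and later gains neurofilaments, a vesicle release machinery, receptors, ion channels and the chloride exporter that makes GABA inhibitory. Early regulators such as the RNA-binding proteins Igf2bp1 and Lin28b and the splicing repressor Ptbp1 are known to decline over the same period. The comparison asks where genes of these steps lay in the marked libraries.

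The tables gave 22417739 to 33216710 counts per dopamine library over 38924 genes. At least 1 count was recorded for 11708 to 12509 genes in the unmarked libraries, against 15656 in Lateral and 13703 in Medial. With every library thinned to the smallest total, these numbers were 11692 to 12356 and 15343 and 13703. Libraries of a pair differed widely: of genes with at least 100 counts in either library, 12.39% had none in the other datL library and 12.12% in the other datM library, against 3.785% between Lateral and Medial. The biological coefficient of variation, the spread of a gene between libraries of a group, was 1.394 over the 6 libraries, 1.467 for the datL pair, 1.451 for the datM pair and 0.945 between Lateral and Medial. The dopamine neuron markers Th, Slc6a3 and Ddc were present in every dopamine library, but Pitx3 lay between 0 and 4.01 CPM (a gene's counts scaled to its library's total) and Slc18a2 had no count in datL 1.

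No gene passed the test at an adjusted p of 0.05 among 12818 tested (0.0% called; edgeR's quasi-likelihood test with a position term, Benjamini-Hochberg adjustment, smallest adjusted p 0.857). Before adjustment 561 genes were under 0.05, of which 492 were higher (3.84% of genes tested) and 69 lower (0.538%) in the marked libraries. Of those 492 genes, 284 had no count in any unmarked library and 50 had counts in all 4. DESeq2 called 262 genes higher (2.04%) and 31 lower (0.242%) in the marked libraries, and limma-voom called 0 with 999 under an unadjusted p of 0.05. The log2 fold change was positive for 56.1% of genes, with a median of 0.21 that moved to 0.13 with RLE factors and 0.38 with upper-quartile factors, so fitted values over the 6 libraries are read relative to 0.21. Over the 6453 genes with at least 10 counts in every library, 43.31% were positive and the median was -0.08. It was -0.01 in the lateral-type and -0.10 in the medial-type libraries alone. As a description without a test, both marked libraries lay above all 4 unmarked ones for 1597 genes (12.5%) and below all 4 for 355 (2.77%). The higher side made up 81.81% of these genes on CPM, 67.72% with RLE factors, and 63.27% among genes with at least 10 counts in every library.

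In what follows CPM values are given in the order datL 1, datL 2, datM 1 and datM 2 for the unmarked libraries, then Lateral and Medial, and then serotonin 1 and 2. Fold changes are fitted log2 values, marked minus unmarked, with their standard error (SE) and edgeR's unadjusted p. None of the genes passed edgeR's test after adjustment, so their values describe these libraries. DESeq2's adjusted p is given for genes described with their values that it called. A gene could pass the expression filter through the side on which it was high, which makes counts over tested members descriptions as well. The same holds for p-values of genes without a count on 1 side, such as Gabbr2, Penk and Hbb-y, DESeq2's adjusted p included. All 284 tested genes without a count in any unmarked library had an edgeR unadjusted p under 0.05. Folds given as at least a value put a floor of 3 counts in place of no count over a group. Of genes with at least 100 counts in either library, 12.39% had none in the other datL library and 12.12% in the other datM library. These folds therefore describe the counts and are no lower limit for a difference in expression. "Apart" is used for a gene whose marked and unmarked libraries did not overlap, and its share is set against 12.5% of all genes for the higher side and 2.77% for the lower.

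Most genes of newborn neurons had negative fold changes, with Dcx, Cd24a and Stmn1 lower in both marked libraries than in every unmarked one. Of 18 tested members of 21, 14 had a negative fold change, the median was -0.93, and 3 stood apart on the lower side with none on the higher. Doublecortin, Dcx (ENSMUSG00000031285.8, chromosome X, 143855842 to 143933311 in mm10), binds microtubules of migrating neurons. It reached 672, 1075, 1230 and 1440 CPM in the unmarked libraries against 548 and 419.6 in Lateral and Medial (log2 fold change -1.31, SE 0.53, unadjusted p = 0.0326). Both marked libraries lay below every unmarked one, and the serotonin libraries, at 477 and 503 CPM, lay there too. Cd24a, a surface protein of immature neurons, read 413, 458, 485 and 672 against 205 and 251 CPM (log2 fold change -1.32, SE 0.51, unadjusted p = 0.0263). Here the serotonin libraries, at 503 and 525 CPM, stayed within the unmarked range, so the marked pair was the lowest of all 8 libraries. Stmn1, which destabilises microtubules, gave 2887, 2160, 2047 and 2052 against 1342 and 1531 CPM, with 2404 and 2701 in the serotonin libraries (log2 fold change -0.84, SE 0.48, unadjusted p = 0.112). It too was lowest in the marked pair.

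The proneural factors behaved less evenly from library to library. Neurod1, a transcription factor of neurons that have just left the cycle, read 69.1, 194, 104 and 464 CPM against 6.71 and 109.6 (log2 fold change -2.75, SE 1.03, unadjusted p = 0.0224). Lateral was the lowest library, while Medial sat inside the unmarked range. Neurog2, which starts neuron formation, was at 0, 3.21, 3.56 and 9.44 against 0.0301 and 0 CPM, with no count in datL 1. Its standard error was 4.54 on the log2 scale, and the summed level of the list overlapped between the groups.

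Regulators of developmental timing were mixed, and among them the RNA-binding protein Igf2bp1 was lower in both marked libraries. Of 17 tested timing genes of 18, 11 were negative, with a median of -0.36, 2 apart on the higher side and 1 on the lower. Igf2bp1 read 49.2, 85.8, 34.2 and 111 CPM in the unmarked libraries and 11.4 and 0.312 in the marked (log2 fold change -4.42, SE 1.78, unadjusted p = 0.0313). DESeq2 gave it an adjusted p of 0.0149, and the serotonin libraries, at 11 and 19.6 CPM, also lay below the unmarked 4. Lin28b, which blocks maturation of let-7, read 17.8, 279.9, 0.147 and 254 against 31.1 and 8.65 CPM (log2 fold change -3.13, SE 1.97, unadjusted p = 0.14). Its unmarked values were high in 1 datL and 1 datM library and low in the others, and the groups overlapped. The paralog Lin28a had a positive fold change, at 2.82, 0.114, 0.0367 and 0 against 0.211 and 14.2 CPM (log2 fold change 6.79, SE 6.12, unadjusted p = 0.292). Hmga2 and Nfix overlapped too, with fold changes of -2.54 (SE 3.07) and -0.41 (SE 1.36). Dnmt3a, the DNA methyltransferase that sets new marks in neurons, was at 312, 199, 261 and 325 against 485 and 736 CPM (log2 fold change 0.95, SE 0.49, unadjusted p = 0.0782). Its marked pair was above all 6 other libraries, the serotonin pair reading 177 and 213.

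The summed levels of progenitor genes and of cell cycle genes overlapped between the groups. Of 19 tested progenitor genes, 13 were negative and none stood apart, with a median of -0.56, which turned positive without datL 1 or without datM 1. Pax6, a factor of neural progenitors, read 115, 66.6, 8.26 and 41.6 against 18.8 and 0.268 CPM (log2 fold change -3.94, SE 1.76, unadjusted p = 0.0474; DESeq2 adjusted p = 0.0396), with datM 1 below Lateral. Hes5 went the other way, at 25.34, 2.06, 1.872 and 0.8736 against 14.87 and 71.1 CPM (log2 fold change 3.69, SE 2.84, unadjusted p = 0.222). Sox2 read 44.77, 3.472, 54.61 and 30.04 against 16.62 and 66.96 CPM (log2 fold change -0.09, SE 1.44). Nes had a negative fold change, at 20.14, 26.13, 268.5 and 314.9 against 30.86 and 45.05 CPM. For Hes5, Sox2 and Nes the groups overlapped. Of 25 cell cycle genes 15 were negative, with a median of -0.25 that turned positive without datL 2 or without datM 1. The median was -1.02 over the 7 members with at least 10 counts in every library. In the lateral-type libraries alone it was -0.215, and in the medial-type ones -0.996. On the lower side 2 (8%) stood apart and on the higher side 1 (4%). The replication helicase subunits Mcm4 and Mcm7 were apart on the lower side, Mcm7 at 121, 112, 106 and 58.8 against 32.4 and 34.6 CPM (log2 fold change -1.72, SE 0.86, unadjusted p = 0.0721), and Ccnb2 on the higher side. Top2a and Mki67, which mark dividing cells, were present on both sides, Mki67 at 22.2, 0.191, 69.4 and 1.83 against 18.1 and 55.5 CPM.

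Neurofilaments, the intermediate filaments that set axon calibre, lay higher in the marked libraries. All 5 members had a positive fold change, the median was 1.57, and 3 stood apart on the higher side. The light chain Nefl (ENSMUSG00000022055.7, chromosome 14, 68083863 to 68089095) was at 334, 216, 270.2 and 84.9 CPM in the unmarked libraries and 821 and 675 in the marked (log2 fold change 1.57, SE 0.56, unadjusted p = 0.0178). The heavy chain Nefh, the last of the triplet to appear in development, read 25.3, 15.6, 6.57 and 1.21 against 53.6 and 178 CPM (log2 fold change 3.78, SE 1.58, unadjusted p = 0.036). For both genes serotonin 2 was high as well, with serotonin values of 263 and 945 for Nefl and 23.4 and 92.3 for Nefh, and serotonin 1 lay within the unmarked range. The medium chain Nefm overlapped, at 161, 262, 271 and 127 against 245 and 894 CPM, because Lateral stayed within the unmarked range. Alpha-internexin, Ina, the filament of younger neurons, had a fold change of 0.09 (SE 0.52, unadjusted p = 0.871). Peripherin, Prph, had no count in any unmarked library and 1.14 and 9.68 CPM in the marked, at least 153-fold higher against a floor of 3 counts over the unmarked group. The summed neurofilament level was 1239, 899, 1234 and 636 CPM against 1631 and 2625, without overlap, and 1065 and 2635 in the serotonin libraries.

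Axon and cytoskeleton genes gave smaller differences, in which the serotonin libraries mostly did not share. All 26 members were tested, 19 were positive, the median was 0.37 and 7 (26.92%) stood apart on the higher side with none on the lower. All 7, namely Tuba1b, Tubb2a, Map1a, Crmp1, Basp1, Kif5a and Kif1a, were also above both serotonin libraries. Map1a, a microtubule-associated protein of mature dendrites and axons, read 168, 50.7, 91.4 and 189.6 against 468 and 538 CPM, and 42.5 and 80 in the serotonin libraries (log2 fold change 1.84, SE 0.62, unadjusted p = 0.0127). Kif1a, the kinesin that carries synaptic vesicle precursors, was at 143, 336, 841 and 380.4 against 1028 and 896 CPM (log2 fold change 1.24, SE 0.61, unadjusted p = 0.0675). The growth cone gene Gap43 did not separate the groups, with 2806, 2295, 2527 and 2107 against 3177 and 2713 CPM (log2 fold change 0.10, SE 0.46, unadjusted p = 0.84), and neither did Stmn2 (-0.17, SE 0.48). Tuba1a, Tuba1b and other tubulin genes are close in sequence, and how reads were shared among them is not given in the sources used here. Axon guidance genes, 35 tested of 37, held 19 positive members, 1 apart on each side, and a median of 0.26, close to that of all genes.

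**Figure D1:**
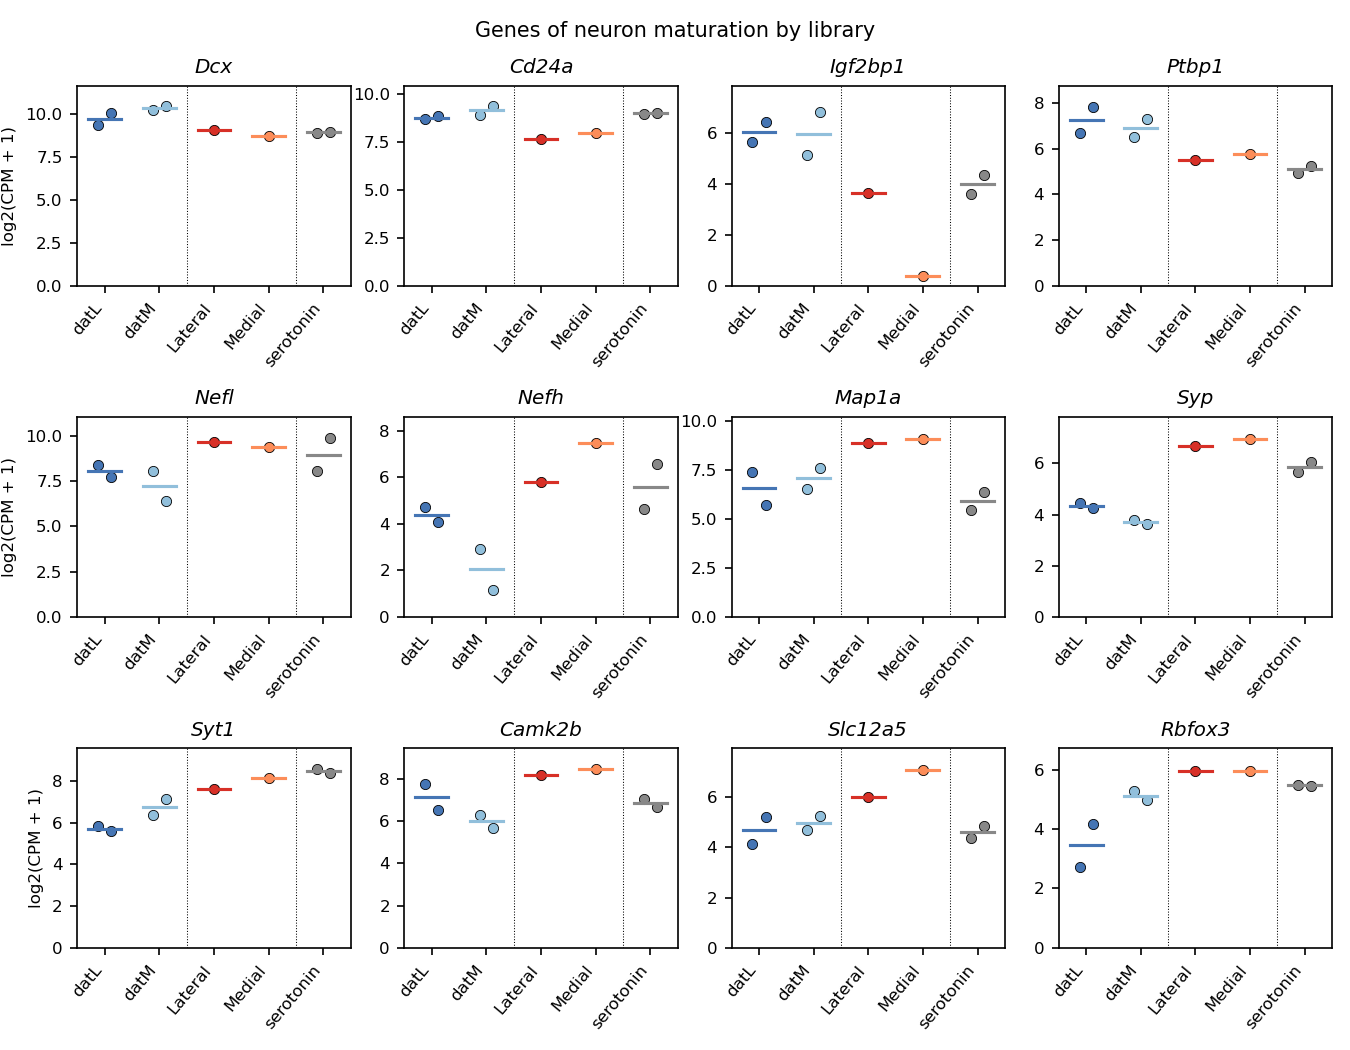
Each panel plots log2(CPM + 1) of 1 gene (vertical axis) in the 8 libraries by group (horizontal axis); points are libraries, horizontal lines are the mean of the log2 values in a group, and dotted lines separate unmarked dopamine, marked dopamine and serotonin libraries. Dcx, Cd24a, Igf2bp1 and Ptbp1 are lower in Lateral and Medial than in all 4 unmarked libraries, and the other 8 genes are higher. Only genes that stood apart are drawn. Genes of the same lists that overlapped, among them Gap43, Stmn2, Snap25, Nefm and Gria2, are not shown.

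Many genes of the presynaptic terminal lay higher in the marked libraries. All 37 were tested, 26 were positive, the median was 0.70, and 13 (35.1%) stood apart on the higher side with none on the lower. Synaptophysin, Syp (ENSMUSG00000031144.9, chromosome X, 7638471 to 7653256), an abundant membrane protein of the vesicle, was at 21, 17.9, 12.9 and 11.3 CPM in the unmarked libraries and 101 and 122 in the marked, with 49.2 and 65 in the serotonin libraries (log2 fold change 2.70, SE 1.06, unadjusted p = 0.0274). Every unmarked library was at or below 21 CPM and both marked ones were above 100. Synaptotagmin 1, Syt1, the calcium sensor of release, read 55.7, 46.9, 82 and 139 against 196 and 281 CPM (log2 fold change 1.48, SE 0.62, unadjusted p = 0.0375). The serotonin libraries were higher still, at 375 and 330.3.

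Among the other members apart were Syn1, Syn2, Syngr1, Syngr3, Sv2a, Vamp1, Vamp2, Unc13a, Amph and Bin1. Synapsin 2, Syn2, which tethers vesicles, was at 88.4, 23, 64.1 and 64.4 against 125 and 329 CPM (log2 fold change 1.61, SE 0.75, unadjusted p = 0.0565), and Sv2a, a vesicle glycoprotein, at 51, 105, 23.4 and 130.2 against 253 and 188 (log2 fold change 1.34, SE 0.76, unadjusted p = 0.108). Of the 13, 9 were above both serotonin libraries as well, and in 7 the serotonin libraries also exceeded all 4 unmarked ones. Snap25, the membrane partner of the fusion complex, did not separate, with 457, 686, 453 and 341 against 782 and 323 CPM (log2 fold change -0.07, SE 0.50, unadjusted p = 0.886): Lateral was the highest and Medial the lowest of the 6. The summed level of the list was 3478, 5322, 4858 and 5086 CPM against 7557 and 6069, without overlap, and 5887 and 6110 in the serotonin libraries.

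On the postsynaptic side 30 of 32 genes were tested, 20 were positive, the median was 0.45, and 7 (23.3%) stood apart on the higher side, all 7 also above both serotonin libraries. They were Homer2, Camk2a, Camk2b, Camk2g, Gphn, Nlgn2 and Cntn1. Camk2b, the beta subunit of the calcium-dependent kinase of synapses, read 214, 91.8, 78.5 and 49.5 against 294 and 353 CPM, with 130.2 and 102 in the serotonin libraries (log2 fold change 1.58, SE 0.65, unadjusted p = 0.0344). Gephyrin, Gphn, the scaffold of inhibitory synapses, was at 40, 169.9, 143 and 130.1 against 231 and 301 CPM (log2 fold change 0.97, SE 0.66, unadjusted p = 0.168), and Nlgn2, the neuroligin of the same synapses, at 42.6, 7.21, 63.2 and 67.5 against 81.7 and 114 (log2 fold change 1.10, SE 1.00, unadjusted p = 0.297). The excitatory scaffolds Dlg4 and Shank1 overlapped, with fold changes of -0.11 (SE 1.94, unadjusted p = 0.955) and -0.31 (SE 0.93, unadjusted p = 0.744).

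The glutamate receptor genes that stood apart were low ones, and other low ones overlapped. Of 22 tested of 25, 16 were positive with a median of 0.66, and 5 (22.7%) stood apart on the higher side. The AMPA receptor subunit Gria2 was at 145, 238, 169 and 141 against 156 and 202 CPM (log2 fold change -0.12, SE 0.59, unadjusted p = 0.843) and the NMDA receptor subunit Grin2b at 36.7, 64.1, 53.4 and 138 against 71.8 and 76.1 (log2 fold change -0.05, SE 0.88, unadjusted p = 0.952). The NMDA receptor core subunit Grin1, also low, overlapped at 1.59, 0.496, 8.04 and 0 against 7.38 and 8.03 CPM. Among the 5 apart were Grin2d, Grm2, Grm7 and Grm8, each with at most 2.33 CPM in an unmarked library and no count in at least 2 of them. Grm2, a metabotropic receptor that dampens release, read 0.0441, 0, 0.183 and 0 against 10.6 and 30.3 CPM and 4.21 and 1.75 in the serotonin libraries (log2 fold change 8.28, SE 3.33, unadjusted p = 0.0306). Grin2d, an NMDA receptor subunit of early brain, had no count in the unmarked libraries and 2.8 and 1.47 CPM in the marked, at least 75.6-fold higher against the same floor. Grm7, a presynaptic receptor of the same family, was at 1.01, 0.0382, 0 and 0 against 14.2 and 23.3 CPM (DESeq2 adjusted p = 0.0446). For all 5 both serotonin libraries also exceeded all 4 unmarked ones.

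Of 15 tested GABA and glycine receptor genes of 20, 6 were positive and 3 (20%) stood apart on the higher side with none on the lower. These 3 were Gabrb1, Gabbr1 and Gabbr2. The median was -0.11 and changed sign with upper-quartile factors and without either datL 2 or datM 2. Gabra2 and Glra2, subunits of the chloride-passing receptors, overlapped between the groups. Gabbr2, a subunit of the GABA-B receptor, had no count in the unmarked libraries and 14.3 and 26.5 CPM in the marked, against 4.75 and 9.4 in the serotonin libraries (DESeq2 adjusted p = 0.0257). Its partner Gabbr1 was at 60.5, 65.5, 66.5 and 83.2 against 95.2 and 175 CPM (log2 fold change 0.74, SE 0.72, unadjusted p = 0.324).

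The potassium-chloride exporter Slc12a5 (KCC2), whose rise makes GABA inhibitory, was at 16.6, 36.4, 24.7 and 37.4 CPM in the unmarked libraries, 63.9 and 136 in the marked and 19.7 and 27.6 in the serotonin libraries (log2 fold change 1.55, SE 1.01, unadjusted p = 0.155). Both marked libraries were above all 6 others. The importer Slc12a2 (NKCC1), which works the other way, was also higher on the marked side, at 0.0441, 2.56, 0.477 and 5.49 against 15 and 9.1 CPM, but at low counts (log2 fold change 2.53, SE 2.97, unadjusted p = 0.412). Of 11 tested chloride transport genes of 12, 9 were positive, 2 stood apart and the median was 0.70, against -0.04 in the medial-type libraries alone.

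Sodium channel genes went both ways. Scn2a, the early axonal channel, was at 33, 60.4, 64.1 and 85.9 against 106 and 178 CPM (log2 fold change 1.05, SE 0.74, unadjusted p = 0.186) and above the serotonin libraries, while Scn1a, at 30.5, 21, 24.3 and 44 against 20 and 6.38 (log2 fold change -1.43, SE 1.77, unadjusted p = 0.437), and the channel partner Fgf14, at 30.2, 68.5, 68.8 and 116 against 26.4 and 7.58 (log2 fold change -2.18, SE 1.28, unadjusted p = 0.116), were apart on the lower side. With 5 of 11 tested members positive the median was -0.02. Potassium channel genes, 30 tested of 35, had 23 positive members and a median of 1.58, but 3 (10%) stood apart on the higher side, below the share of all genes, and the median was 0.03 over members with at least 10 counts in every library. Of the 3, Kcnab2, an auxiliary subunit, read 10.5, 0.0763, 48.3 and 32.8 against 70.1 and 86.3 CPM (log2 fold change 2.43, SE 1.69, unadjusted p = 0.179). Calcium and HCN channel genes had 8 of 16 tested members positive and a median of 0.02. Their 3 members on the higher side were Cacna1i, Cacnb3 and Hcn3, while Cacna1d, the pacemaker calcium channel of dopamine neurons, overlapped at 5.86, 20.1, 27.4 and 10.8 against 12.5 and 5.13 CPM (log2 fold change -1.03, SE 2.36, unadjusted p = 0.671).

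Among RNA-binding proteins, the splicing repressor Ptbp1, which holds back the neuronal splicing program, was lower in the marked libraries, at 102, 222, 90 and 156 against 44.6 and 53.2 CPM (log2 fold change -1.69, SE 0.76, unadjusted p = 0.0482). The serotonin libraries were lower still, at 29.9 and 36.5. Its neuronal paralog Ptbp2 overlapped, with a fold change of 0.21 (SE 0.59, unadjusted p = 0.731). Rbfox3 (NeuN), the splicing factor used as a mark of mature neurons, read 5.64, 17.2, 37.9 and 30.3 against 61.1 and 61.2 CPM and 44.3 and 42.5 in the serotonin libraries (log2 fold change 1.55, SE 1.33, unadjusted p = 0.272). The nearest unmarked library, datM 1, was at 37.9 CPM. Nova1 was apart on the lower side, at 342, 483, 536 and 613 against 208 and 320.0 CPM (log2 fold change -1.09, SE 0.51, unadjusted p = 0.0552). Over the 20 genes of the list 11 were positive, 2 stood apart each way and the median was 0.13.

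Most genes of dopamine transmission had positive fold changes over the 6 libraries, but not in the medial-type libraries alone. Of 19 tested of 20, 17 were positive with a median of 1.18, which was 1.82 for Lateral against datL and -0.04 for Medial against datM, and 3 (15.8%) stood apart on the higher side. Aldh1a1, the aldehyde dehydrogenase of a ventral subset of dopamine neurons, was at 29.4, 232, 249.9 and 362 against 808 and 898 CPM (log2 fold change 1.97, SE 0.71, unadjusted p = 0.0185), and the serotonin libraries held 0.577 and 0.343. Gch1 and Qdpr, enzymes of the cofactor that tyrosine hydroxylase needs, were the other 2, and both serotonin libraries also exceeded the unmarked ones. Tyrosine hydroxylase itself, Th, overlapped at 93.2, 348, 905 and 254 against 852 and 687 CPM (log2 fold change 1.02, SE 0.73, unadjusted p = 0.189), as did the transporter Slc6a3 at 129, 229, 31.9 and 176 against 739.5 and 129.5 (log2 fold change 1.11, SE 0.75, unadjusted p = 0.168). The summed level of the list was 1064, 1737, 2836 and 2576 CPM against 3988 and 3392, without overlap, and 2683 and 2452 in the serotonin libraries. Within the bulk libraries, more dopamine neurons and more RNA per neuron cannot be told apart.

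The transcription factors of midbrain dopamine neurons did not shift as a group, with 9 of 16 tested members of 18 positive and a median of 0.17. Nr4a2, required for the dopamine phenotype, was at 56.7, 99.2, 463 and 296 against 115 and 341 CPM (log2 fold change 0.05, SE 0.58, unadjusted p = 0.933), Lmx1a at 28.3, 45.1, 343 and 185 against 110.0 and 145 (log2 fold change 0.38, SE 0.78, unadjusted p = 0.639) and En1 at 59.1, 27.1, 100.4 and 71.7 against 74.4 and 104 (log2 fold change 0.36, SE 0.84, unadjusted p = 0.678). Nr4a2 and Lmx1a were lower in datL than in datM and lower in Lateral than in Medial. Nr2f2 (COUP-TFII), a nuclear receptor of early patterning, was the lowest in the marked pair of all 8 libraries, at 1108, 490.0, 719.9 and 485 against 243 and 219.9 CPM and 562 and 406 in the serotonin libraries (log2 fold change -1.77, SE 0.57, unadjusted p = 0.0109). Sox6, a factor of the lateral, nigral subset, was also apart on the lower side, at 42.5, 27.4, 73.1 and 58.7 against 27 and 0.0892 CPM (log2 fold change -2.48, SE 2.21, unadjusted p = 0.286).

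Neuropeptide genes were often unseen in the unmarked libraries. Of 22 tested of 24, 16 were positive with a median of 0.61, and 7 (31.8%) stood apart on the higher side: Pcsk1, Pcsk1n, Cck, Npy, Penk, Pdyn and Grp. Proenkephalin, Penk, had no count in the 4 unmarked libraries and 30.9 and 11.3 CPM in the marked, at least 768-fold higher against the floor, with 13.6 and 133 CPM in the serotonin libraries (DESeq2 adjusted p = 0.0232). Cck, a peptide of midbrain dopamine neurons, had none in the unmarked libraries and 0.572 and 3.52 CPM in the marked. For all 7 both serotonin libraries also exceeded all 4 unmarked ones, for Cck by 1 count each. The secretogranin Scg2, broadly present, overlapped at 176, 129.9, 156 and 331 against 183 and 297 CPM (log2 fold change 0.10, SE 0.58, unadjusted p = 0.867). Of activity-regulated genes 12 of 26 passed the filter, 6 were positive, 3 (25%) stood apart on the higher side with none on the lower, and the median of -0.11 changed sign under 7 of 14 alternatives. Bdnf read 0.22, 91.3, 0.0734 and 81.5 against 54.2 and 87.2 CPM, and Npas4, a factor induced by calcium entry, had no count in the unmarked libraries and 1.2 and 0.446 CPM in the marked.

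Most glycolysis and hypoxia-response genes had positive fold changes. Of 27 tested of 28, 25 were positive with a median of 0.66, and 10 (37%) stood apart on the higher side, 9 of them also above both serotonin libraries. Aldolase C, Aldoc, the isoform of brain, read 139.5, 136, 141 and 136 CPM in the unmarked libraries, within a narrow range, and 394 and 398 in the marked, with 115 and 220.4 in the serotonin libraries (log2 fold change 1.34, SE 0.51, unadjusted p = 0.0241). Neuronal enolase, Eno2, which replaces the ubiquitous form as neurons mature, was at 136, 44.3, 106 and 61.9 against 372 and 342 CPM (log2 fold change 1.85, SE 0.63, unadjusted p = 0.0142). Lactate dehydrogenase A, Ldha, was at 754, 565, 844 and 542 against 1634 and 1161 CPM (log2 fold change 0.86, SE 0.48, unadjusted p = 0.0991). The summed level was 6993, 7146, 9713 and 6233 CPM against 14100 and 10890, without overlap. The glucose transporter Slc2a1 and Vegfa, targets of the hypoxia factor, overlapped, with fold changes of -0.02 (SE 2.10, unadjusted p = 0.992) and 0.45 (SE 3.03, unadjusted p = 0.886).

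Ribosomal protein genes pointed the other way. Of 49 tested of 50, 47 were negative with a median of -0.63, and 9 (18.4%) stood apart on the lower side, all 9 also below both serotonin libraries. Rpl7 was at 1900, 1099, 1290 and 996 against 642 and 639 CPM (log2 fold change -1.21, SE 0.51, unadjusted p = 0.0385), and Rps6 at 1332, 514, 639 and 507 against 334 and 426 (log2 fold change -1.10, SE 0.59, unadjusted p = 0.0871). The summed level, 56130, 24860, 31570 and 26030 CPM against 20050 and 30460, overlapped, since Lateral was lowest and Medial lay inside the range, and datL 1 stood far above the rest. The median was -1.28 in the lateral-type libraries and -0.20 in the medial-type ones. These genes have many processed copies in the genome, and the treatment of reads shared with them is not given in the sources used here.

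Respiratory chain genes had 12 of 35 positive, 2 apart on the higher side and a median of -0.20. Atp5b, the catalytic subunit of ATP synthase, was apart on the higher side, at 944, 317, 756 and 301 against 1380 and 1305 CPM (log2 fold change 1.03, SE 0.58, unadjusted p = 0.103). Cholesterol synthesis genes had 11 of 21 positive, 1 apart and a median of 0.05. Stress response genes had 16 of 28 positive, 4 apart and a median of 0.56 that was -0.19 over members with at least 10 counts in every library. Atf4, the factor of the integrated stress response, was at 76.5, 118, 167 and 89.8 against 88.8 and 60.5 CPM (log2 fold change -0.75, SE 0.76, unadjusted p = 0.347). Cdkn1a (p21), a target of p53, read 44.5, 42.8, 37.8 and 5.49 against 132 and 74 (log2 fold change 1.51, SE 1.03, unadjusted p = 0.173).

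**Figure D2:**
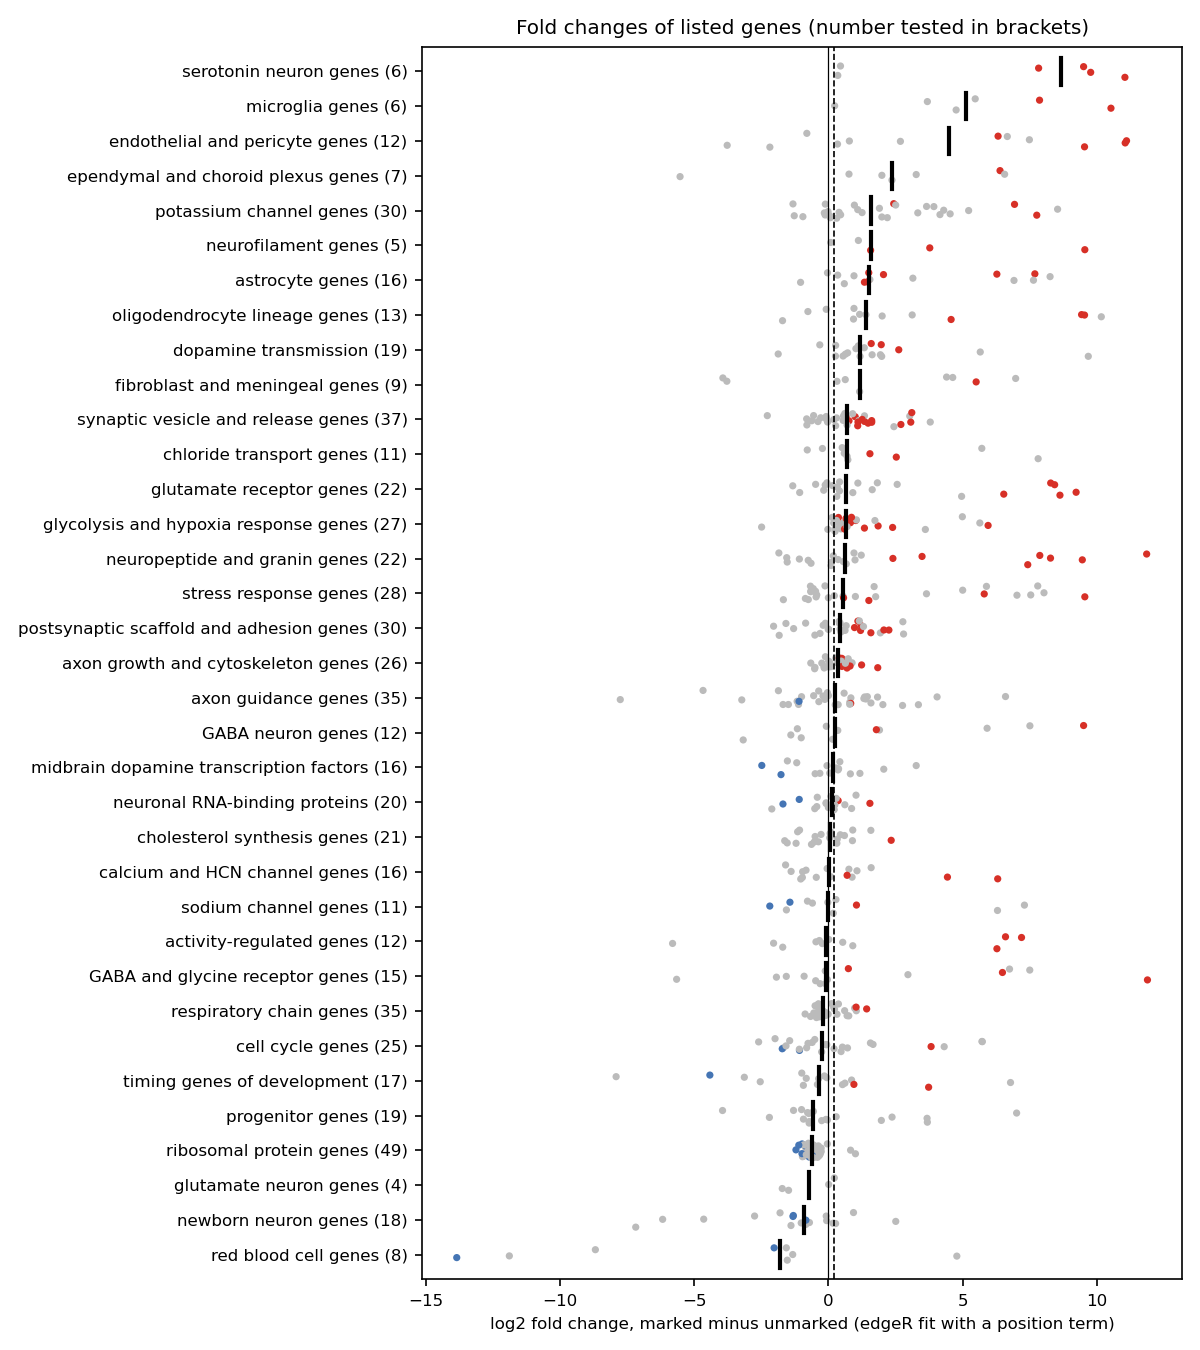
Each point is a tested gene of a list (vertical axis, with the number tested in brackets), placed by its fitted log2 fold change, marked minus unmarked (horizontal axis); red points are genes whose marked libraries lay above all 4 unmarked ones, blue points below, grey points overlapped. Thick bars are list medians and the dashed line is the median of all genes, 0.21; newborn neuron and ribosomal protein genes lie to the left of it, and neurofilament, synaptic vesicle and glycolysis genes to the right.

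Genes of glia were also higher in the marked libraries. The summed level of 18 astrocyte genes was 688, 746, 1917 and 1664 CPM in the unmarked libraries and 2023 and 2787 in the marked, without overlap, against 381 and 685 in the serotonin libraries. Of 16 tested, 14 were positive with a median of 1.52 and 6 stood apart on the higher side. Apoe, the lipid carrier made by astrocytes, read 0.573, 0.0382, 1.28 and 0 against 34.1 and 45.5 CPM (log2 fold change 6.28, SE 2.75, unadjusted p = 0.044), and Sparcl1 4.71, 14, 256 and 287 against 258 and 473 (log2 fold change 3.15, SE 1.00, unadjusted p = 0.00978; DESeq2 adjusted p = 0.0276). The defining marker Aldh1l1 overlapped, at 71.1, 171, 586 and 373 against 432 and 567 CPM, with the datM pair near the marked level, and Gfap was counted in Lateral alone among the dopamine libraries. Aldoc belongs to this list as well as to glycolysis.

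The oligodendrocyte lineage gave summed levels of 134, 245, 196 and 124 CPM against 346 and 689.5, again without overlap, with 10 of 13 tested members positive and 3 apart. Sox10, the factor of that lineage, read 0.0881, 0, 0 and 0 against 15.5 and 10.3 CPM (log2 fold change 9.44, SE 3.55, unadjusted p = 0.0228). Cspg4 (NG2), of oligodendrocyte precursors and pericytes, was at 0, 0, 23.7 and 0.0416 against 58.9 and 145 CPM (log2 fold change 9.54, SE 3.48, unadjusted p = 0.0194; DESeq2 adjusted p = 0.000233), with datM 1 the only unmarked library above 1 CPM. Olig2 went the other way, at 30.9, 0, 0.0367 and 0.0416 against 8.22 and 0 CPM. The part of glial RNA in the neuronal differences was not tested.

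Summed levels of other cell types overlapped between the groups. Endothelial and pericyte genes summed to 75.3, 72.1, 129 and 196 against 116 and 356 CPM, with 9 of 12 tested positive and 4 apart. Flt1, a VEGF receptor of endothelium, had no count in the unmarked libraries and 6.05 and 19.8 CPM in the marked. Of the endothelial markers, Cldn5 stood apart at a low level, at 0.0441, 0.0382, 0 and 0 against 2.05 and 1.03 CPM (log2 fold change 6.32, SE 1.94, unadjusted p = 0.00791). Both serotonin libraries, at 1.29 and 1.34 CPM, also exceeded the unmarked ones for Cldn5. The markers Pecam1 and Kdr overlapped. Microglia genes summed to 0, 23.2, 74.8 and 0.0832 against 15.1 and 29.9 CPM, with 6 of 15 tested, 2 apart and Csf1r at 0 in every library. Fibroblast genes, 9 tested of 14 with 7 positive, summed to 52, 75.5, 87.9 and 302 against 100.5 and 288 CPM. Ependymal and choroid plexus genes, 7 tested of 12 with 6 positive, summed to 1.59, 1.64, 21.7 and 60 against 16.1 and 135 CPM.

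Haemoglobin genes had negative fold changes, and the embryonic forms were not seen in the marked libraries at all. Embryonic beta-globin Hbb-y (ENSMUSG00000052187.3, chromosome 7, 103851745 to 103853240), made by the first red cells of the yolk sac, read 135, 16.1, 99.8 and 13.3 CPM in the unmarked libraries and had no count in either marked library, with 4.34 and 9.67 CPM in the serotonin libraries. It had the smallest unadjusted p of all genes that edgeR tested, 0.000536, and DESeq2 gave an adjusted p of 7.57e-09. Against a floor of 3 counts over the marked group it was at least 1208-fold lower. With no expression filter it passed edgeR's test too (adjusted p = 0.00349). Embryonic alpha-globin Hba-x read 35.6, 0, 11 and 22.3 CPM and had no count in the marked libraries (DESeq2 adjusted p = 0.00717). The definitive globins remained detectable, with Hbb-bs at 254, 65.5, 274 and 64.4 against 41.2 and 97 CPM (log2 fold change -1.53, SE 0.89, unadjusted p = 0.113) and Hba-a1 at 130.5, 51.2, 147 and 80.5 against 26.3 and 76.2 (log2 fold change -1.33, SE 0.88, unadjusted p = 0.16), and these have near-identical copies between which reads could be split. Hbb-bs and Hba-a1 overlapped between the groups. Of 8 tested of 10, 7 were negative with a median of -1.80 and 2 stood apart on the lower side. The summed level of the list also overlapped, at 764.4, 226.2, 750.5 and 278.5 against 102.4 and 237 CPM.

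Genes of other neurons were also examined. Gad1, which makes GABA, was at 104, 358, 1.54 and 0.208 CPM in the unmarked libraries and 624 and 239.7 in the marked (log2 fold change 5.91, SE 1.73, unadjusted p = 0.0059; DESeq2 adjusted p = 9.64e-05). Medial lay between the datL libraries and Lateral above them, while the datM pair was almost without it. With no expression filter it passed edgeR's test (adjusted p = 4.38e-05). Gad2, the other enzyme of GABA synthesis, overlapped at 196, 193, 46.9 and 130.2 against 141 and 134 CPM (log2 fold change -0.08, SE 0.68, unadjusted p = 0.91). Slc17a6, the vesicular transporter of glutamate neurons, overlapped at 6.79, 195, 114 and 285 against 76.2 and 319.6 CPM. Over the lists, 7 of 12 tested GABA neuron genes and 2 of 4 tested glutamate neuron genes were positive, with 2 of the former apart on the higher side.

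Low levels of serotonin neuron genes were counted in the marked libraries, which shared a lane with the serotonin libraries. Tph2, the serotonin-making enzyme, was at 0, 0, 0.0367 and 0 CPM in the unmarked libraries, 16.8 and 41.5 in the marked and 2909 and 2189 in the serotonin libraries (DESeq2 adjusted p = 0.00479 for marked against unmarked). The serotonin transporter Slc6a4 had no count in the unmarked libraries, 5.27 and 3.92 CPM in the marked and 1196 and 1075 in the serotonin libraries. Fev, which did not pass the expression filter, had no count in the unmarked libraries, 0.0903 and 0.312 CPM in the marked and 142 and 130 in the serotonin libraries. Slc22a3 read 0, 2.21, 0.0367 and 0, 2.77 and 28.9 and 184 and 205 in the same order, and Gata2 0.352, 0, 0 and 0, 13.7 and 24.2 and 122 and 159. All 6 tested members of 10 were positive and 4 stood apart, while the summed level overlapped because of datL 1, at 423, 82, 37.1 and 72.4 against 259.7 and 208 CPM. The part of the shared lane in these values was not tested.

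**Figure D3:**
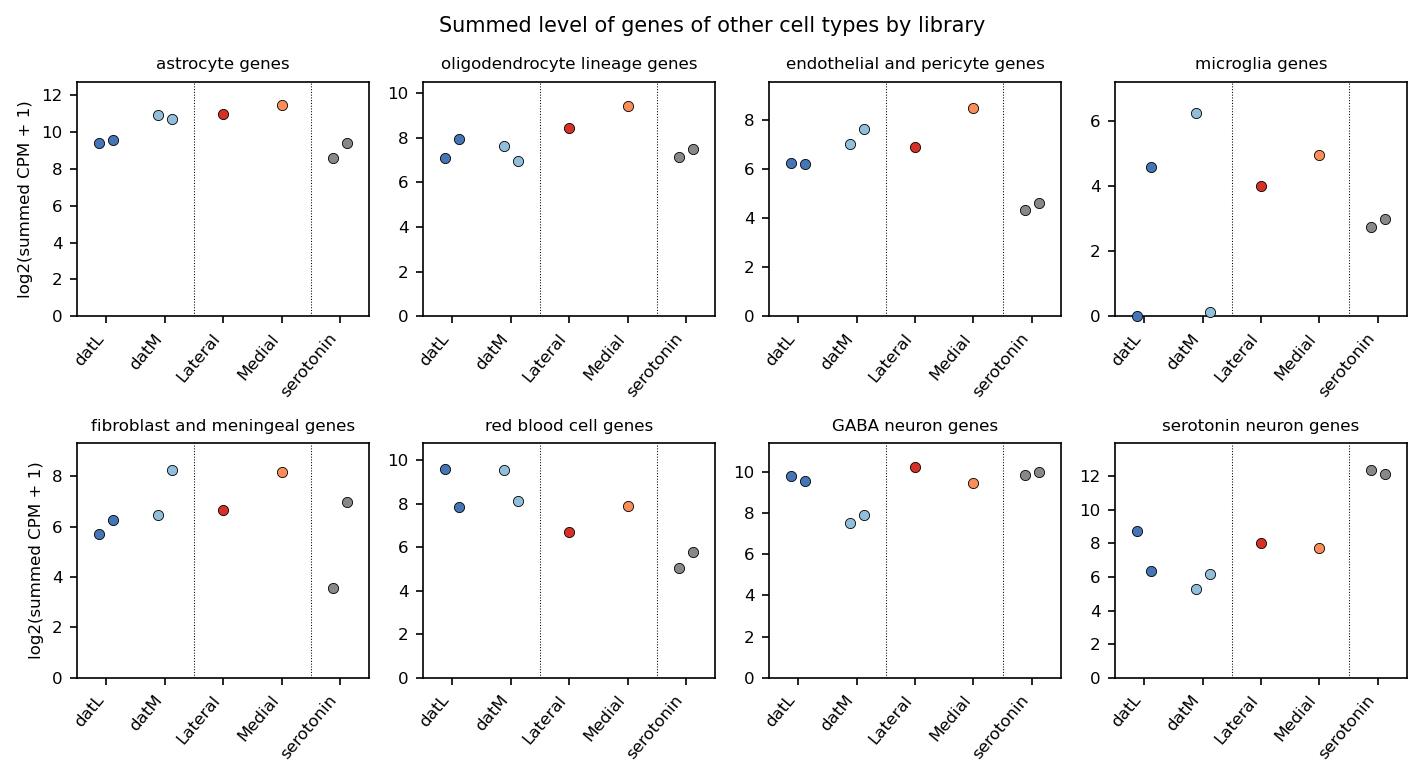
Each panel plots the log2 of the summed CPM plus 1 of a list of marker genes (vertical axis) in each library, by group (horizontal axis); points are libraries and dotted lines separate unmarked dopamine, marked dopamine and serotonin libraries. Astrocyte and oligodendrocyte lineage genes are higher in both marked libraries than in all 4 unmarked ones, and the other 6 lists overlap.

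The serotonin libraries, of another neuron type but the marked libraries' lane, lay above all 4 unmarked libraries for 15.24% of genes tested and below all 4 for 5.032%. Among the 1597 genes higher in the marked libraries without overlap, both serotonin libraries were also above the unmarked ones for 925 (57.92%). Among the 355 lower ones both were below for 142 (40%). Both comparisons use the same 4 unmarked libraries, so part of this sharing is built in. Of the 1597 genes, 284 had no count in any unmarked library. The part of the shared lane in these shares was not tested. The marked pair lay above all 6 other libraries for 797 genes (6.218% of genes tested) and below all 6 for 204 (1.592%). Of genes apart on the higher side, 797 of 1597 over all genes were thus also above the serotonin pair. By list it was 7 of 7 for axon and cytoskeleton genes, 7 of 7 for postsynaptic genes and 9 of 10 for glycolysis. Presynaptic genes had 9 of 13, neuropeptides 3 of 7 and neurofilaments 0 of 3. Glial lists had high shares as well, with 6 of 6 for astrocyte genes and 3 of 3 for the oligodendrocyte lineage.

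Genes of the lists and outside them were also ranked together by the smallest unadjusted p among those apart, with a mean of at least 5 CPM. Gstm1, a glutathione transferase, was at 58.9, 72.5, 39.6 and 23.8 against 283 and 289 CPM and 38.1 and 80.9 in the serotonin libraries (log2 fold change 2.50, SE 0.65, unadjusted p = 0.00281; DESeq2 adjusted p = 0.0401). The GABA transporter of astrocytes, Slc6a11, read 0.837, 3.17, 1.58 and 0.707 against 75.3 and 88.8 (log2 fold change 5.61, SE 1.64, unadjusted p = 0.00603; DESeq2 adjusted p = 0.00398). Hap1, a huntingtin-associated transport protein, was at 159, 76, 123 and 118 against 453 and 537 CPM (log2 fold change 1.87, SE 0.54, unadjusted p = 0.00541), and the syndecan Sdc3 at 70.5, 49.5, 57.8 and 50.6 against 270.5 and 232 (log2 fold change 1.96, SE 0.62, unadjusted p = 0.00984). Prkcq, Brinp1, Fbln2, Cnst, Bhlhe22 and Tph2 completed the 10. Each of Prkcq, Brinp1, Fbln2, Cnst and Bhlhe22 was close to 0 in the unmarked libraries and was called by DESeq2, with adjusted p from 2.46e-05 for Prkcq to 0.0133 for Bhlhe22. Brinp1, an inhibitor of neuronal cell division, was at 0, 0.0382, 0 and 0 against 59.5 and 22.2 CPM (DESeq2 adjusted p = 0.000417).

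On the lower side the 10 were, in order, Hbb-y, Gpr85, Kdm6b, Zfp790, Nr2f2, Cdk4, Rnd3, Ehmt1, Myt1 and Bcor. Cdk4, the kinase that drives cells out of the first gap phase, was at 412, 271, 370.1 and 288 against 146 and 97.1 CPM, with 283 and 306 in the serotonin libraries (log2 fold change -1.66, SE 0.58, unadjusted p = 0.0152). Myt1, a zinc finger factor of neuronal commitment, was at 47.1, 85.4, 74.2 and 160.1 against 13.5 and 9.99 (log2 fold change -3.04, SE 1.08, unadjusted p = 0.0171; DESeq2 adjusted p = 0.0269). Gpr85, an orphan receptor of developing brain, read 204, 177, 208 and 212 against 63.2 and 32.2 (log2 fold change -2.28, SE 0.69, unadjusted p = 0.00737; DESeq2 adjusted p = 0.0273). Zfp790, a zinc finger gene, read 46.2, 125, 78 and 286 against 15.7 and 18.3 (DESeq2 adjusted p = 0.0238). Kdm6b, which removes repressive methyl groups from histone H3, was at 913, 1048, 488 and 918 against 427 and 182 (log2 fold change -1.73, SE 0.55, unadjusted p = 0.00953; DESeq2 adjusted p = 0.0454). Ehmt1 and Bcor, which are also chromatin regulators, read 279, 182, 321 and 334 against 107 and 72.3 and 421, 2062, 379.6 and 1360 against 259.8 and 255 CPM. Rnd3, a small GTPase of migrating neurons, was at 191, 459, 149.7 and 735 against 99.2 and 79.8 (log2 fold change -2.23, SE 0.78, unadjusted p = 0.0154).

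DESeq2 also called 11 list members whose groups overlapped and whose edgeR unadjusted p was above 0.05. They were Aqp4, Mbp and Hmox1, and, named after their values were seen, Ret, the GDNF receptor of dopamine neurons, Slc2a3, Trib3, Fgfr3, Agt, Gabrg1, Chrnb3 and Kcnip4. All 11 had a positive fitted fold change, and for each at least 2 unmarked libraries were below 0.4 CPM. Ret read 0, 0.267, 32.2 and 55.9 against 31.7 and 31.7 CPM (DESeq2 adjusted p = 0.0496). The water channel of astrocytes, Aqp4, read 0, 0.0763, 0.587 and 31.7 against 25.3 and 55.9 (DESeq2 adjusted p = 0.0289), the myelin gene Mbp 0, 58.3, 0 and 0 against 39.8 and 89.2 (DESeq2 adjusted p = 0.000574) and haem oxygenase, Hmox1, 0, 0, 24.8 and 0 against 12.2 and 40.1 (DESeq2 adjusted p = 0.0388). The neuronal glucose transporter Slc2a3 was at 42.7, 18.9, 0.367 and 0.125 against 35.3 and 58.4 (DESeq2 adjusted p = 0.0244).

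The 2 positions were also compared separately, which uses different libraries for each. Over 12594 genes, Lateral minus datL and Medial minus datM shared a sign for 54.18% and had a Pearson correlation of 0.113 across genes, which are not independent replicates. Newborn neuron genes had medians of -0.83 and -1.14 in the 2 positions, neurofilament genes 1.19 and 1.92, presynaptic genes 0.56 and 0.56, and postsynaptic genes 0.39 and 0.52. Glycolysis genes had 0.97 in the lateral-type and 0.15 in the medial-type libraries, and potassium channel genes 0.71 and -0.02. A test of the difference between positions called 0 genes with edgeR (123 under an unadjusted p of 0.05) and 326 with DESeq2.

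**Figure D4:**
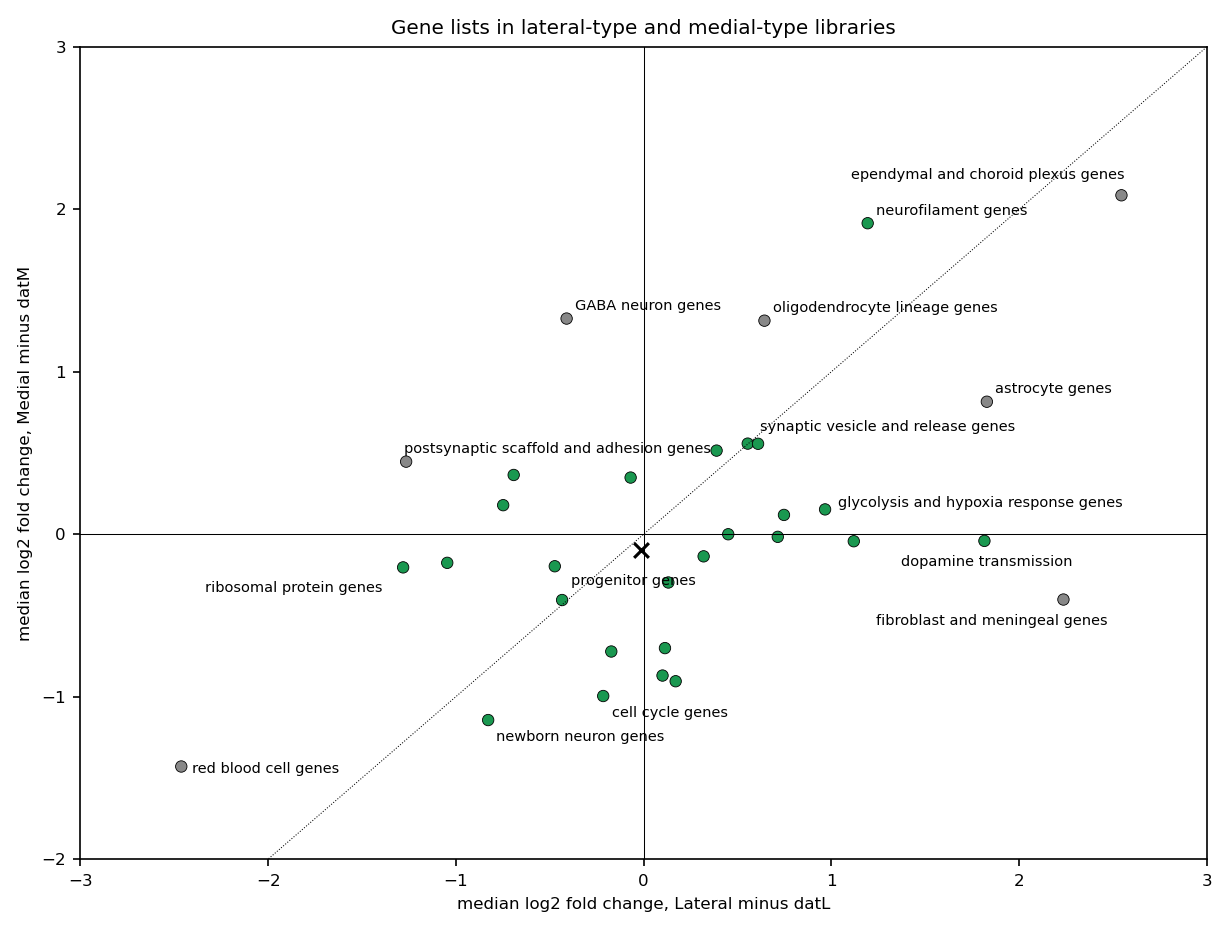
Each point is a gene list, placed by the median log2 fold change of Lateral against datL (horizontal axis) and of Medial against datM (vertical axis); green points are neuronal and metabolic lists, grey points lists of other cell types, the cross is all genes tested, and the dotted line marks equal values. Newborn neuron and red blood cell genes are negative at both positions and neurofilament, synaptic vesicle and astrocyte genes positive at both; the serotonin neuron, microglia and endothelial lists, whose medians over both positions were above 3, are not drawn.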

How the data were processed

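Ribosome-bound RNA of mouse brain neurons was sequenced as 100 bp single reads of cDNA amplified by long-distance PCR, per the labels' protocols. Reads were aligned with STAR to mm10, per the submitters' processing notes, and the authors deposited raw counts per gene made with featureCounts 1.4.3-p1 on gencode.vM2 without strand, per the file headers, so a gene and an antisense partner cannot be told apart. Gene symbols were matched by identifier for 37607 of 38924 genes. Deposited counts of the 6 dopamine libraries were fitted with edgeR 4.0.16 (TMM, filterByExpr, quasi-likelihood test, position and mark as terms, 3 residual degrees of freedom) in R 4.3.3; DESeq2 1.42.0 and limma 3.58.1 served as alternatives, with Benjamini-Hochberg adjustment at 0.05. With 2 libraries against 4, an exact permutation test of 1 gene could not go below p = 0.133. Nothing in the labels ties libraries to separate embryos, so p-values measure the spread between these libraries. CPM were computed from total counts, which count PCR copies. The script was tested on simulated counts, where known folds had to be recovered only at a spread far below that of these libraries. Larger spreads were simulated as well, without that requirement. Their recovery is not reported here, so how many differences the fit would miss is not stated. The comparison and the 35 gene lists (738 genes) were chosen with earlier results of these data known. Genes named are list leads chosen by role, 2 members per list with the smallest unadjusted p under 0.05, and 10 genes each way by smallest p among those apart with a mean of at least 5 CPM; members apart that were added to these were named after their values were seen. Ntn3 and Lhfpl3 were not matched. Alternatives changed normalization, test, filter, covariates, depth, positions and libraries. The replicate numbers of the titles were not taken as pairs, since only 2 pairs exist and their deviations correlated at 0.103. Some members of the lists are counted but not reported by name here.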

Additional observations from a re-analysis of the deposited data

Results flagged for a closer look

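Single unmarked libraries stood apart from the other 3 in 20 of 176 groups of 4 values examined. A library was listed when the gap to its nearest neighbour, divided by the range of the 4, exceeded Dixon's critical value. The rate of about 1 in 20 groups tied to that value holds for independent, normally distributed values. Here CPM were skewed, with many listed genes nearly absent from the other libraries, and some genes examined also belong to summed lists. The 20 groups therefore cannot be set against that rate, and the listing is descriptive. Among summed list levels, datL 1 was lowest for chloride transport genes at 127.7 CPM and highest for serotonin neuron genes at 422.7 CPM, and datM 2 was highest for fibroblast and meningeal genes at 301.7 CPM.

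Among genes present in all 4 libraries or nearly so, datL 1 was highest for the progenitor factor Hes5 at 25.34 CPM, for the respiratory chain subunit Uqcrq at 645.8 CPM, and for the ribosomal protein genes Rps6 at 1332 and Rps27a at 1246 CPM. The remaining genes were high in 1 library and at or near 0 in the others. In datL 1 these were Olig2 at 30.93 CPM and Lin28a at 2.82 CPM. In datL 2 they were Mbp at 58.29, Pecam1 at 39.9 and Alas2 at 26.44 CPM. In datM 1 they were Hmox1 at 24.84, Cspg4 at 23.71, Pdgfrb at 32.59 and Col3a1 at 6.606 CPM. In datM 2 they were Kcna2 at 13.1, Chac1 at 18.22, Aqp4 at 31.66 and Tmem212 at 13.73 CPM.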

How the results depend on the processing

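The number of marked libraries, 2, and the spread between libraries limit every test here, and thinning to the smallest total left the calls at 0. The count of genes called with edgeR, 0 each way, was the same with RLE or upper-quartile factors, limma-voom, thinned counts and without each library in turn. It was 262 higher and 31 lower with DESeq2, 2 higher and 3 lower with no expression filter, and 1 higher with all 8 libraries as 5 groups; the interaction count was 326 with DESeq2. With the replicate number as a block it was 0 each way, and no named gene passed; the block was not run for the interaction or for DESeq2. Genes higher without overlap numbered 527 with at least 10 counts in every library, where fewer genes are tested, and 2332 to 3307 when 1 library was left out (3307 without Lateral, 2453 without Medial). Genes lower without overlap numbered 603 with RLE factors and 578 to 1172 when 1 library was left out (839 without datL 1, 606 without datL 2, 673 without datM 1, 578 without datM 2, 1172 without Lateral, 818 without Medial). Leaving libraries out relaxes this criterion by construction.

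All 58 named genes with an unadjusted p under 0.05 kept their sign under every alternative run. Many of them were named by a small p in these same libraries, which the alternatives reuse. Their kept signs are therefore no independent support. Over the 160 named genes tested, 213 of 2973 values had the other sign. The median kept its sign in 15 of 35 lists under all 14 alternatives, among them newborn neuron, neurofilament, synaptic vesicle, postsynaptic, glycolysis, ribosomal protein, astrocyte and red blood cell genes. It changed sign under at least 1 in 20 lists, among them dopamine transmission, chloride transport, potassium channel and microglia genes with medial-type libraries alone.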
